A study of Mus musculus with 6 samples.

Results

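The genes described here are 36 components of the apoptosis, necroptosis and pyroptosis machinery, taken by symbol from a fixed list of names out of 55536 genes counted in orthotopic HCA-1 tumors. They comprise the pyroptotic pore proteins and inflammasomes, the necroptosis kinases and pore, the death ligands and their receptor complex, the BCL2 family, and the caspases and inhibitors downstream of mitochondria. All 36 were found by symbol, and 35 of them passed the filter on low counts that kept 15374 genes. The gene left out was Hrk, a BH3-only killer, with counts between 0 and 1 in each library.

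Tumors were grown from HCA-1, a murine hepatocellular carcinoma (HCC) line, injected under the capsule of the liver of male C3H mice (C3H/HeNCrNarl in the study's methods) aged 6 to 8 weeks. The 3 control mice (libraries 5, 6 and 7) were untreated. The 3 treated mice (libraries 1, 2 and 5) received GOx-DOX-LGP, a lipid-gelatin-protamine nanogel that carries glucose oxidase (GOx) and the chemotherapeutic doxorubicin (DOX), by vein. The labels place doses on days 18, 19 and 20 and yet the transcriptome analysis on day 17 after 3 h of circulation, so the interval between dose and harvest cannot be read from them. The methods put the harvest of tumors for PCR on the day after the final dose and name no day for sequencing. No group given the empty carrier, GOx alone or DOX alone is among these libraries, and all tumors came from a single cell line. The comparison asks whether transcripts of the death machinery differed between treated and untreated tumors.

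Apoptosis dismantles a cell through caspases, which are started either at death receptors on the cell surface or by cytochrome c released from mitochondria under the control of the BCL2 family. Necroptosis and pyroptosis are lytic. The first opens the membrane with MLKL after RIPK3 has phosphorylated it, and the second with gasdermins cleaved by caspases that inflammasomes activate. In liver, hepatocytes are sensitive to death receptor signals, while inflammasome sensors and ZBP1 are best known from macrophages and other immune cells. These proteins are mostly switched on after translation, so transcript levels measure the supply of the parts and not the number of dying cells.

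Library totals lay between 15529940 and 18401178 counts. Values are given as CPM, counts scaled to library size with a TMM factor, and 3 counts, taken as the lowest level that could be shown, corresponded to between 0.132 and 0.323 CPM, which covers counting error only. Library Control 5 stood apart from Controls 6 and 7. Its log2 CPM correlated across genes with the treated tumors at r between 0.966 and 0.975, but with Controls 6 and 7 at 0.730 and 0.659. The 12 hepatocyte markers summed to 712 CPM in Control 5, to 131820 and 215092 CPM in Controls 6 and 7, and to between 1499 and 3738 CPM in the treated tumors. Of the liver cancer markers, Afp lay between 2.25 and 13.2 CPM, Igf2 and Dlk1 were at or below the lowest level that could be shown in each library, and Spp1, which cholangiocytes and macrophages also make, reached 6936 CPM. The 8 markers of this list, Spp1 included, summed to 7009 CPM in Control 5 and to 509 and 214 CPM in Controls 6 and 7. In the treated tumors they summed to between 4683 and 7096 CPM. Of the 6 kept by the filter, 2 had estimates above 0 and 4 below. In bulk tumor RNA, fewer cells of a type and less RNA per cell cannot be told apart. Calls are therefore given with and without Control 5, and beside the hepatocyte values. The plot of marker lists shows these sums by library.

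**Figure D1:**
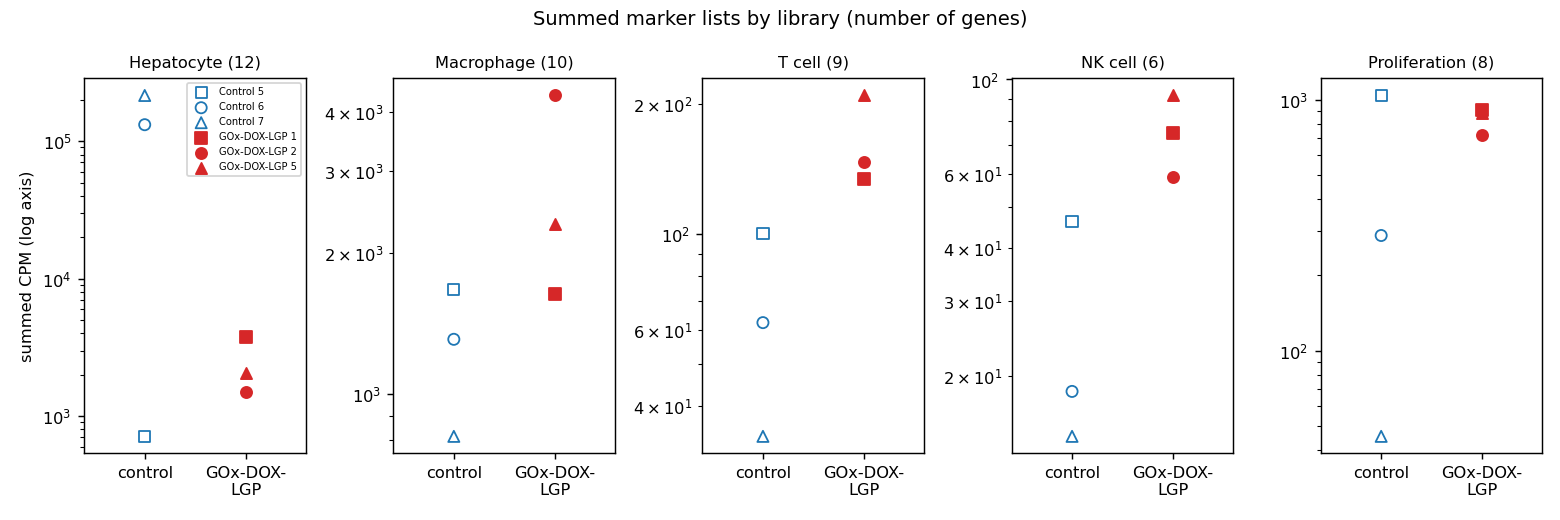
Summed CPM (log axis) of 5 marker lists in each library, with open blue symbols for the 3 control tumors and filled red symbols for the 3 GOx-DOX-LGP tumors. Control 5 holds 712 CPM of hepatocyte markers against 131820 and 215092 CPM in the other controls, and the T cell sums of the 3 treated tumors lie above all controls. The NK cell sums do so only with Prf1 included.

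With all 6 libraries, 0 of the 35 members had an adjusted p under 0.05 in edgeR's quasi-likelihood test with Benjamini-Hochberg adjustment, as did 0% of the 15374 genes tested, and the smallest adjusted p of a member was 0.247. At an unadjusted p under 0.05, 3 members were higher in treated tumors (8.57% of members, 2.87% of all genes). These were Zbp1, Fasl and Bak1. Another 3, namely Tnfsf10, Xiap and Bik, were lower (8.57% of members, 14.6% of all genes). DESeq2 gave an adjusted p under 0.05 to 1 member in each direction, Zbp1 higher (2.86% of members, 0.93% of all genes) and Tnfsf10 lower (2.86% of members, 8.93% of all genes). In 7 members every treated tumor lay above every control (20.0% of members, 8.87% of all genes), and in 1 member, Birc2, every treated tumor lay below (2.86% of members, 8.31% of all genes). With 3 tumors against 3, an exact two-sided permutation test cannot give a p below 0.1 for any single gene. The replicates are tumors of separately labelled mice, and p-values measure the spread between these libraries.

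Between routes, the median log2 fold change of treated against control tumors was 0.75 over the 4 necroptosis genes, 0.62 over the 9 pyroptosis genes, −0.10 over the 7 death receptor genes and −0.21 over the 15 mitochondrial genes tested. The median of all 15374 genes was 0.02 and that of the 35 members 0.10. The death receptor and mitochondrial routes mix killers with inhibitors such as Cflar and Xiap. The sign of their medians is therefore not a direction of death. Within the mitochondrial route, medians were 0.67 over 3 anti-apoptotic and 0.20 over 5 pro-apoptotic BCL2 genes. They were −0.53 over Casp9, Casp6 and Cycs, and −0.32 over the 4 genes Xiap, Birc2, Birc3 and Diablo. Scaling by library totals moved the median of all genes to 0.51 and the death receptor and mitochondrial medians to 0.46 and 0.36. Under the alternatives run, the medians of these 2 routes did not keep their sign. The death receptor median was 0.18 under limma voom, 0.078 without Control 5 and 0.0057 without GOX_DOX 5. The mitochondrial median was 0.0042 with the hepatocyte covariate. Without a filter on low counts it was 0.010, but over 16 genes, since Hrk was then included. The pyroptosis median depended on single controls, at 0.13 without Control 7, 0.28 without Control 6 and 1.05 without Control 5, and was 0.21 with the hepatocyte covariate. The necroptosis median was 0.39, 0.58 and 1.56 in the same 3 fits without a control, 0.25 with the covariate and 1.25 under voom. Both of these medians stayed above 0 under each alternative run. The estimates of 18 members were above 0 and of 17 below it under TMM, against 29 and 6 under library totals and 24 and 11 under upper quartile scaling.

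**Figure D2:**
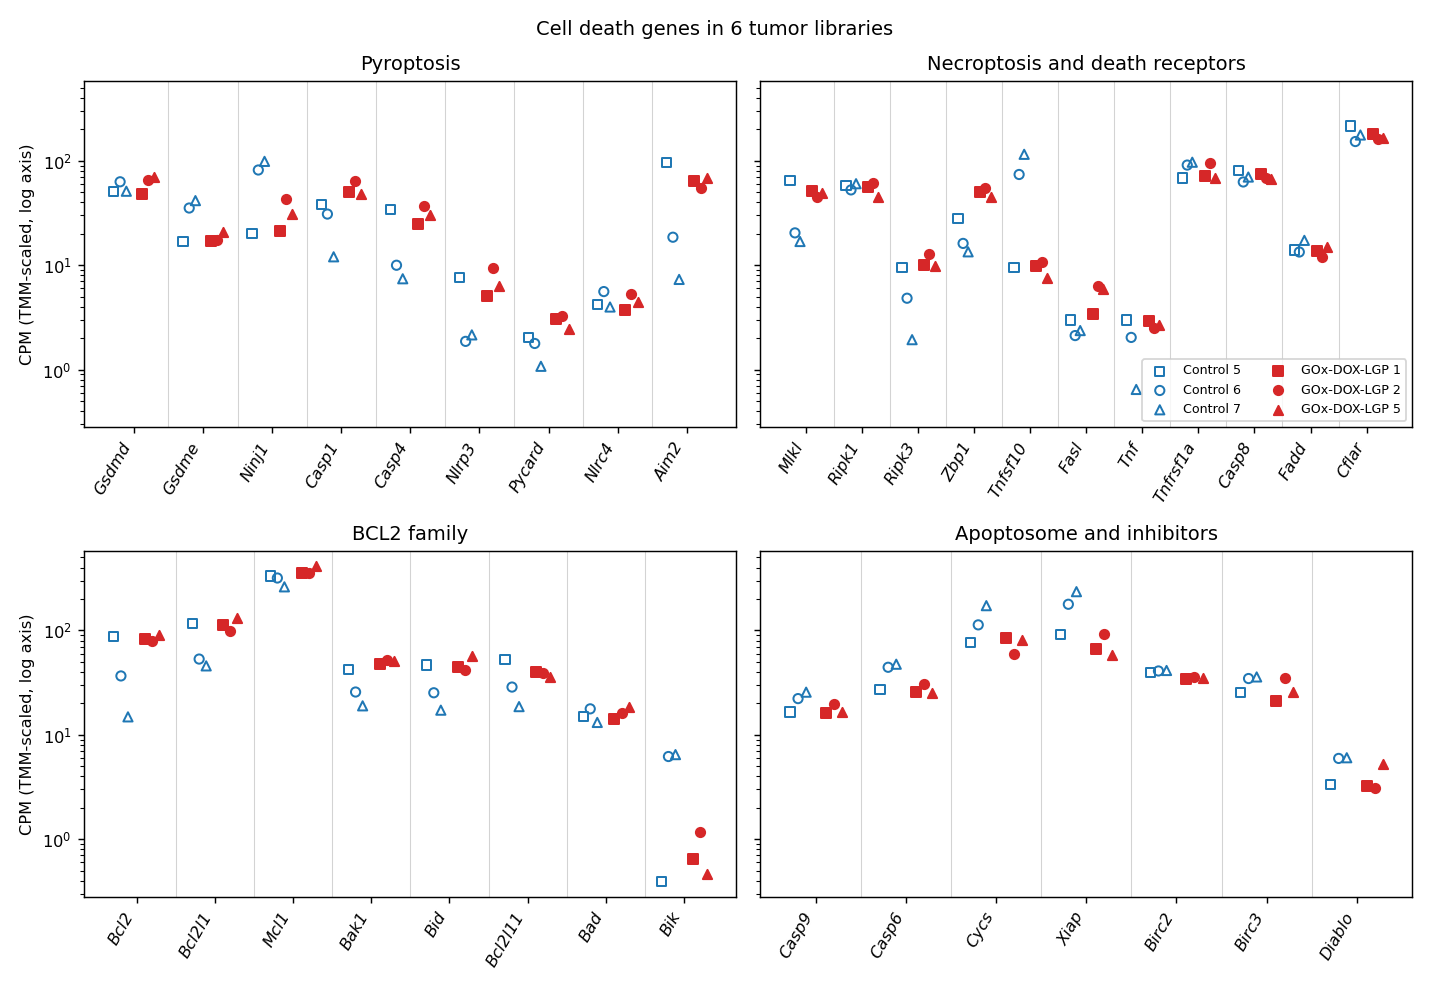
CPM (log axis) of the 35 members kept, in 4 panels by route, with 1 symbol per library. In many genes the open square of Control 5 sits with the filled symbols of the treated tumors and away from the other controls, whereas in Zbp1 all 3 treated tumors (45.0 to 55.2 CPM) lie above all controls (13.5 to 28.0 CPM).

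Among the necroptosis genes, Zbp1, the sensor of Z-form nucleic acids that engages RIPK3, had the lowest unadjusted p of any member (0.00472 in edgeR). Controls 5, 6 and 7 held 28.0, 16.2 and 13.5 CPM of it, against 50.3, 55.2 and 45.0 CPM in treated tumors 1, 2 and 5. The groups did not overlap, and Control 5 was the highest control while still below each treated tumor. The means were 19.2 ± 7.75 CPM and 50.2 ± 5.10 CPM (SD, n = 3). The log2 fold change was 1.38 ± 0.32 (SE), with an adjusted p of 0.247 in edgeR and 0.00418 in DESeq2. It ranged from 1.18 to 1.79 when each library was left out in turn and from 1.27 to 1.76 across the other scalings. With the hepatocyte markers as a covariate it was 1.04 ± 0.21, with an adjusted p of 0.408 in edgeR. The treated mean was 1.79 times Control 5 and 3.38 times the mean of Controls 6 and 7.

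Ripk3, the kinase that phosphorylates MLKL, measured 9.48, 4.83 and 1.94 CPM in the controls and 10.1, 12.8 and 9.78 CPM in the treated tumors. The groups did not overlap, but the margin between Control 5 and the lowest treated tumor was narrow. Its log2 fold change of 0.99 ± 0.56 had an adjusted p of 0.381 in edgeR. Mlkl, the pore former itself, was highest in Control 5 at 64.9 CPM, against 20.4 and 16.9 CPM in Controls 6 and 7 and 45.3 to 51.5 CPM in the treated tumors. Control 5 thus exceeded every treated tumor for the executioner of this route, whereas Controls 6 and 7 lay below them. Its log2 fold change was 0.51 ± 0.53 with all libraries (adjusted p = 0.592, edgeR) and 1.42 ± 0.19 without Control 5 (adjusted p = 0.00105, edgeR). Ripk1, the kinase that decides between survival and death downstream of TNF receptors, was level. It measured 58.6, 52.7 and 60.5 CPM in the controls and 56.2, 61.9 and 45.1 CPM in the treated tumors, with overlapping groups and a log2 fold change of −0.07 ± 0.20. Some 9.01% of its exon bases overlap other annotated genes.

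Ratios of counts within 1 library do not depend on scaling, and these pairs were chosen after their values had been seen. Per count of Ripk1, the Zbp1 counts were 0.478, 0.307 and 0.222 in the controls and 0.894, 0.892 and 0.999 in the treated tumors. Per count of Mlkl, they were 0.432, 0.793 and 0.796 against 0.976, 1.22 and 0.908. Zbp1 therefore stood higher in each treated library relative to Ripk1 and to Mlkl, and in the second ratio Control 5 was the lowest of all libraries. Per count of Ripk3, by contrast, the Zbp1 counts were 2.96, 3.35 and 6.94 in the controls and 4.99, 4.30 and 4.60 in the treated tumors. These groups overlapped, with Control 7 the highest of all libraries.

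T cell markers, of which 8 of 9 did not overlap between groups, summed to between 34.0 and 100.1 CPM in the controls and 134 to 209 CPM in the treated tumors. Over all genes, 8.87% lay higher without overlap and 8.31% lower. The 10 macrophage markers summed to 813 to 1675 CPM against 1634 to 4344 CPM, with estimates above 0 for 10 of 10 and no overlap for 4. The NK cell list, with 5 of 6 markers kept, summed to 14.4 to 46.4 CPM against 58.9 to 91.7 CPM, but only 2 of the 5, Prf1 and Eomes, did not overlap. Without Prf1, which cytotoxic T cells also make, the NK cell sums were 30.2, 16.0 and 13.0 CPM in the controls and 31.4, 28.7 and 49.9 CPM in the treated tumors, and treated tumor 2 lay below Control 5. None of the T cell, macrophage or NK cell markers was at 0 in all libraries. The estimates of all markers kept in these 3 lists were above 0, as were those of Zbp1, Ripk3, Fasl, Casp1 and Pycard, and their part in those values was not tested. The 8 proliferation markers, also with estimates above 0 for 8 of 8, summed to 1038 CPM in Control 5, to 287 and 45.5 CPM in Controls 6 and 7 and to between 719 and 908 CPM in the treated tumors, the order seen in Mlkl, Aim2 and Bcl2l11. The 6 fibroblast markers summed to 5709 CPM in Control 5, to 1726 and 1406 CPM in Controls 6 and 7 and to between 2186 and 6873 CPM in the treated tumors. Of their estimates, 3 were above 0 and 3 below, and none was without overlap. The part of proliferating cells and fibroblasts in the members' values was not tested either.

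The inflammasome genes were mostly higher in treated tumors than in Controls 6 and 7, with Control 5 between these groups, within the treated range or above it. Casp1, the protease that cleaves gasdermin D and pro-interleukin 1 beta, measured 38.3, 31.0 and 12.1 CPM in the controls and 50.2, 63.7 and 47.9 CPM in the treated tumors. The groups did not overlap and Control 7 was far below the rest. Its log2 fold change was 0.99 ± 0.43 (adjusted p = 0.303, edgeR). Pycard, the adaptor ASC that joins sensors to caspase-1, measured 2.02, 1.78 and 1.08 CPM in the controls against 3.06, 3.28 and 2.45 CPM, again without overlap but from 10 to 67 counts per library. Its log2 fold change was 0.83 ± 0.36 (adjusted p = 0.298, edgeR), and 12.8% of its exon bases lie opposite another annotated gene.

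Aim2, the sensor of cytosolic DNA, had the widest spread among controls in this group. Control 5 held 96.1 CPM and Controls 6 and 7 only 18.6 and 7.32 CPM, while the treated tumors held 64.8, 54.4 and 69.1 CPM. Control 5 was above all treated tumors and 7.42 times the mean of the other controls. Its log2 fold change was 0.62 ± 0.88 with all libraries (adjusted p = 0.683, edgeR), 2.30 ± 0.39 without Control 5 (adjusted p = 0.00294, edgeR) and 0.06 ± 0.36 with the hepatocyte covariate. Casp4, the intracellular sensor of lipopolysaccharide, was likewise high in Control 5 and low in the other controls, with 34.3 CPM in Control 5, 10.0 and 7.43 CPM in Controls 6 and 7, and 24.8 to 37.2 CPM in the treated tumors. Nlrp3, a sensor of cell damage, measured 7.63, 1.87 and 2.15 CPM in the controls against 5.04 to 9.36 CPM in the treated tumors. In both genes Control 5 lay within the treated range, and their log2 fold changes were 0.82 ± 0.60 and 0.81 ± 0.62 with all libraries. Nlrc4, which works with NAIP proteins to sense bacterial products, spanned 3.98 to 5.60 CPM in controls and 3.71 to 5.29 CPM in treated tumors.

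The pore proteins did not follow the inflammasomes. Gsdmd, the gasdermin cleaved by caspase-1 and caspase-11, spanned 50.5 to 63.1 CPM in controls and 48.6 to 70.6 CPM in treated tumors, with a log2 fold change of 0.16 ± 0.23. Gsdme, the gasdermin cleaved by caspase-3, measured 16.8 CPM in Control 5, 35.4 and 41.6 CPM in Controls 6 and 7, and 17.2 to 20.7 CPM in the treated tumors. Ninj1, which ruptures the membrane of dying cells, measured 20.1, 81.8 and 99.0 CPM in the controls and 21.2, 43.4 and 31.1 CPM in the treated tumors. For both of these, Control 5 was the lowest library of all and Controls 6 and 7 were the highest. Ninj1 had a log2 fold change of −1.07 ± 0.61 (adjusted p = 0.382, edgeR) and of 0.16 ± 0.41 with the hepatocyte covariate.

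Among the death ligands and receptors, Tnfsf10, which encodes the death ligand TRAIL, had the largest absolute log2 fold change of the members with all 6 libraries. Controls 5, 6 and 7 held 9.52, 74.1 and 116 CPM, against 9.79, 10.7 and 7.49 CPM in the treated tumors. Controls 6 and 7 were far above the rest, and Control 5 lay within the treated range. The log2 fold change was −2.83 ± 0.84, with an adjusted p of 0.247 in edgeR and 0.0116 in DESeq2. It was −3.31 ± 0.26 without Control 5 (adjusted p = 9.16e-05, edgeR) and −0.75 ± 0.29 with the hepatocyte covariate (adjusted p = 0.723, edgeR). The treated mean was 0.979 times Control 5, while the mean of Controls 6 and 7 was 10.2 times the treated mean. Per count of Casp8, Tnfsf10 counts were 0.117, 1.18 and 1.65 in the controls and 0.131, 0.157 and 0.111 in the treated tumors.

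Fasl, the death ligand of cytotoxic lymphocytes, measured 2.98, 2.12 and 2.37 CPM in the controls and 3.41, 6.32 and 5.88 CPM in the treated tumors. The groups did not overlap, although treated tumor 1 was close to Control 5. An estimated log2 fold change of 1.06 ± 0.36 had an adjusted p of 0.247 in edgeR and 0.0670 in DESeq2, and it ranged from 0.91 to 1.31 when each library was left out. Per count of Casp8, Fasl counts were between 0.0337 and 0.0367 in the controls and 0.0458, 0.0928 and 0.0867 in the treated tumors. Tnf, the inflammatory cytokine that can start either apoptosis or necroptosis, spanned 0.646 to 2.98 CPM in controls and 2.50 to 2.92 CPM in treated tumors. Tnfrsf1a, its main receptor, spanned 68.7 to 97.2 CPM against 68.7 to 94.6 CPM.

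The complex that assembles beneath the receptors was level between groups. Casp8, the initiator caspase that also restrains necroptosis, measured 81.2, 62.8 and 70.1 CPM in the controls and 74.5, 68.1 and 67.8 CPM in the treated tumors. The estimated log2 fold change was −0.03 ± 0.19, and the groups overlapped. The adaptor Fadd had a log2 fold change of −0.14 ± 0.22, and Cflar, which encodes the caspase-8 inhibitor c-FLIP, of −0.10 ± 0.24. The estimates of all 3 turned positive, between 0.38 and 0.46, when libraries were scaled by their totals, which moved the median of all genes to 0.51.

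In the BCL2 family, Mcl1, which restrains BAK1 and BAX, measured 333, 318 and 262 CPM in the controls and 354, 357 and 412 CPM in the treated tumors. The groups did not overlap, but the difference was small, with a log2 fold change of 0.30 ± 0.26 (adjusted p = 0.534, edgeR). Bak1, a pore former of the outer mitochondrial membrane, measured 42.0, 25.7 and 18.9 CPM in the controls and 47.7, 51.5 and 51.3 CPM in the treated tumors, again without overlap. The estimate was a log2 fold change of 0.79 ± 0.32 (adjusted p = 0.278, edgeR) and 0.45 ± 0.20 with the hepatocyte covariate. Of its exon bases, 25.5% lie opposite Ggnbp1, and whether reads were counted by strand is not given in the sources used here.

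The anti-apoptotic Bcl2 and Bcl2l1 (BCL-xL) and the pro-apoptotic Bid and Bcl2l11 (BIM) shared 1 pattern, low in Controls 6 and 7 and high in Control 5 and the treated tumors. Bcl2 measured 88.0, 36.6 and 14.9 CPM in the controls and 78.6 to 91.2 CPM in the treated tumors. Bcl2l1 measured 116, 53.2 and 45.7 CPM against 99.1 to 130.2 CPM. Bcl2l11, whose protein binds all anti-apoptotic members, measured 52.7, 28.7 and 18.6 CPM in the controls and 40.0, 38.9 and 36.1 CPM in the treated tumors. Control 5 was the highest library for Bcl2l11, and the log2 fold change was 0.20 ± 0.39 with all libraries (adjusted p = 0.772, edgeR) and 0.72 ± 0.23 without Control 5 (adjusted p = 0.0357, edgeR). Bid, the link from caspase-8 to mitochondria, had a log2 fold change of 0.69 ± 0.39, and Bad, a BH3-only protein held by survival kinases, of 0.10 ± 0.23.

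Bik, a BH3-only protein, ran the other way. It measured 0.395, 6.19 and 6.46 CPM in the controls and 0.643, 1.18 and 0.468 CPM in the treated tumors, from 9 to 73 counts per library. Controls 6 and 7 stood above all others and Control 5 was the lowest. The log2 fold change was −2.48 ± 1.01 with all libraries (adjusted p = 0.282, edgeR) and 0.01 ± 0.33 with the hepatocyte covariate.

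Downstream of mitochondria, Xiap, the direct inhibitor of effector caspases, measured 91.6, 178 and 235 CPM in the controls and 66.5, 93.2 and 58.3 CPM in the treated tumors. Controls 6 and 7 were highest, and Control 5 lay just inside the upper end of the treated range. The log2 fold change was −1.21 ± 0.40 (adjusted p = 0.247, edgeR) and −0.60 ± 0.28 with the hepatocyte covariate. Birc2, the ubiquitin ligase cIAP1, measured 39.5, 40.9 and 41.3 CPM in the controls and 34.0, 35.6 and 35.4 CPM in the treated tumors. It was the 1 member lower in every treated tumor, by a log2 fold change of −0.21 ± 0.16 (adjusted p = 0.487, edgeR), but the separation was lost under upper quartile scaling and under library totals, which turned the estimate to 0.32. Birc3, which encodes cIAP2, had a log2 fold change of −0.23 ± 0.26, and shares 7.38% of its 50-base stretches with Birc2 and other genes. The 6 endothelial markers were on the side of the lower members, with 5 of 6 estimates below 0. Groups did not overlap for 5, against 8.31% of all genes lower and 8.87% higher without overlap. The markers summed to 127 to 248 CPM in the controls against 92.4 to 111 CPM in the treated tumors. Their part in the values of Xiap, Birc2 and Tnfsf10 was not tested.

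Casp9, the initiator caspase of the apoptosome, Casp6, an effector caspase, Cycs (cytochrome c) and Diablo (SMAC, which relieves IAP inhibition) all had estimates below 0. Casp6 spanned 26.9 to 47.5 CPM in controls and 25.3 to 30.8 CPM in treated tumors, with a log2 fold change of −0.53 ± 0.27. Cycs spanned 77.0 to 173 CPM against 59.9 to 84.4 CPM, with a log2 fold change of −0.68 ± 0.35. The log2 fold changes of Casp9 and Diablo were −0.30 ± 0.24 and −0.41 ± 0.39. Counts of 2 of these 4 are uncertain, since 25.9% of the 50-base stretches of Cycs occur in other genes, processed copies among them, and 42.8% of the exon bases of Diablo are overlapped by other genes.

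Leaving out Control 5 left 2 controls against 3 treated tumors and changed the calls. In edgeR with Benjamini-Hochberg adjustment, 13 members were then called higher (37.1% of members, 22.2% of 16249 genes) and 7 lower (20.0% of members, 25.5% of genes). The 13 were Casp1, Casp4, Nlrp3, Aim2, Mlkl, Ripk3, Zbp1, Fasl, Bcl2, Bcl2l1, Bak1, Bid and Bcl2l11. The 7 were Gsdme, Ninj1, Tnfsf10, Bik, Casp6, Cycs and Xiap. By route, 4 of 9 pyroptosis genes were called higher and 2 lower, 3 of 4 necroptosis genes higher and 0 lower, 1 of 7 death receptor genes in each direction, and 5 of 15 mitochondrial genes higher and 4 lower. A fit without Control 5 compares the treated tumors with the 2 controls rich in hepatocyte RNA, at 131820 and 215092 CPM of markers. Hepatocyte RNA and treatment cannot be told apart in it.

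With all 6 libraries and the hepatocyte markers as a covariate, 1 member was higher at an unadjusted p under 0.05 (2.86% of members, 2.29% of all genes) and 1 lower (2.86% of members, 4.34% of all genes). They were Zbp1 and Tnfsf10. Hepatocyte sums were 131820 and 215092 CPM in Controls 6 and 7, against 712 CPM in Control 5 and 1499 to 3738 CPM in the treated tumors. At low hepatocyte levels the treated tumors are thus set mainly against Control 5, a single library. Of the members with no overlap, the estimates under the covariate were 0.63 ± 0.38 for Casp1, 0.63 ± 0.42 for Pycard, 0.49 ± 0.38 for Ripk3, 0.84 ± 0.42 for Fasl, 0.20 ± 0.21 for Mcl1 and −0.19 ± 0.18 for Birc2. Each of these 6 was nearer 0 than without the covariate. The plot of 3 fits gives the estimates of all 35 members.

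**Figure D3:**
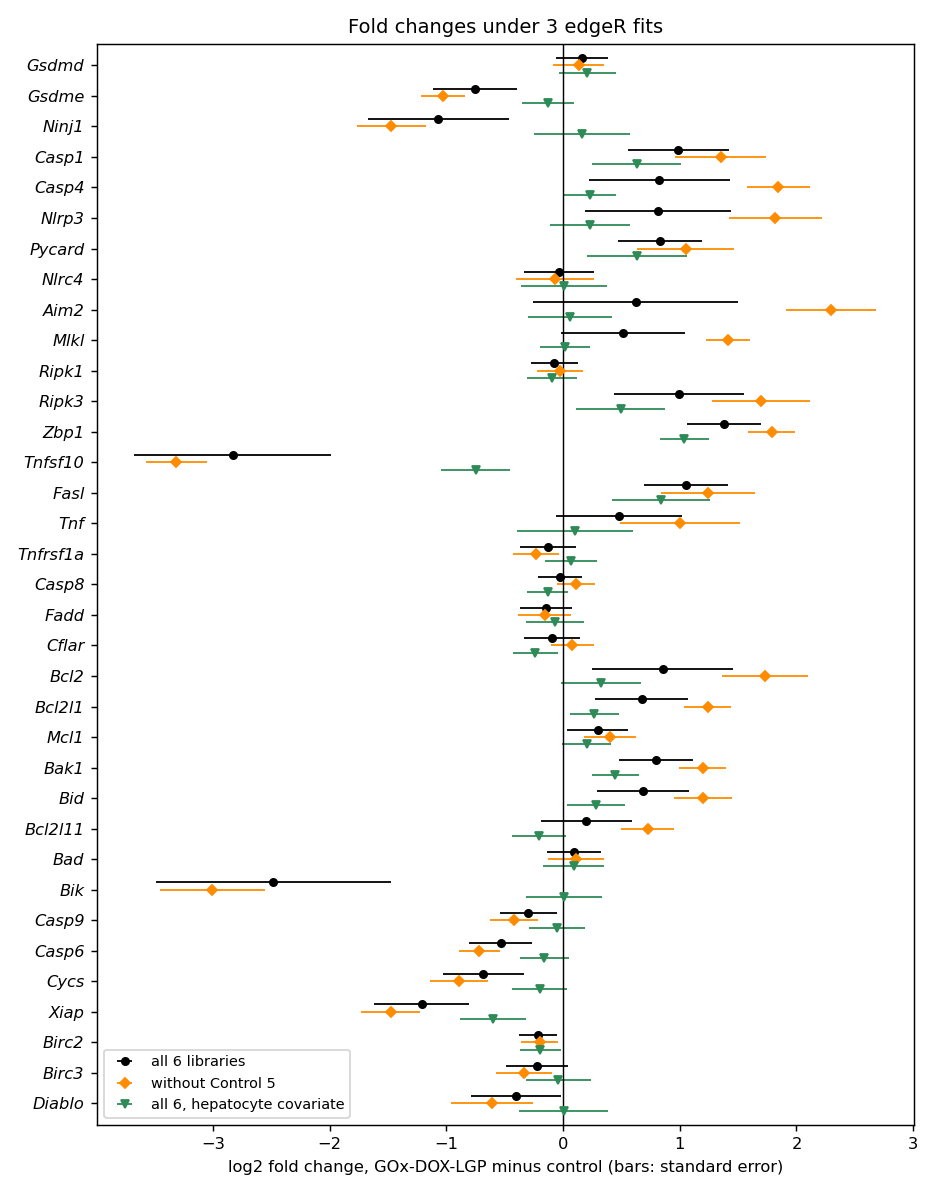
Log2 fold change (GOx-DOX-LGP minus control, horizontal axis) with its standard error for 35 members under edgeR with all 6 libraries (black circles), without Control 5 (orange diamonds) and with the hepatocyte covariate (green triangles). Aim2 moves from 0.62 to 2.30 without Control 5 and to 0.06 with the covariate, whereas Zbp1 stays between 1.04 and 1.79.

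Control 5 can also be set against the treated tumors member by member, as a description with no test. It lay within the range of the treated tumors for 18 of 35 members (51.4%, against 45.6% of all genes). It was at least 2-fold above the mean of Controls 6 and 7 for 10 members (28.6%, against 21.6% of all genes) and at least 2-fold below for 5 (14.3%, against 21.8%). The treated mean exceeded Control 5 by at least 1.5-fold for 4 members (11.4%, against 12.3% of all genes). These were Zbp1 at 1.79-fold, Fasl at 1.74-fold, Ninj1 at 1.58-fold and Bik at 1.93-fold, the last from 9 counts in Control 5. It lay at least 1.5-fold below Control 5 for 1 member, Aim2, at 0.654 times its level (2.86%, against 6.06% of all genes). The shares of 51.4% and 11.4% are near those of all genes, and the other shares rest on at most 10 members.

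**Figure D4:**
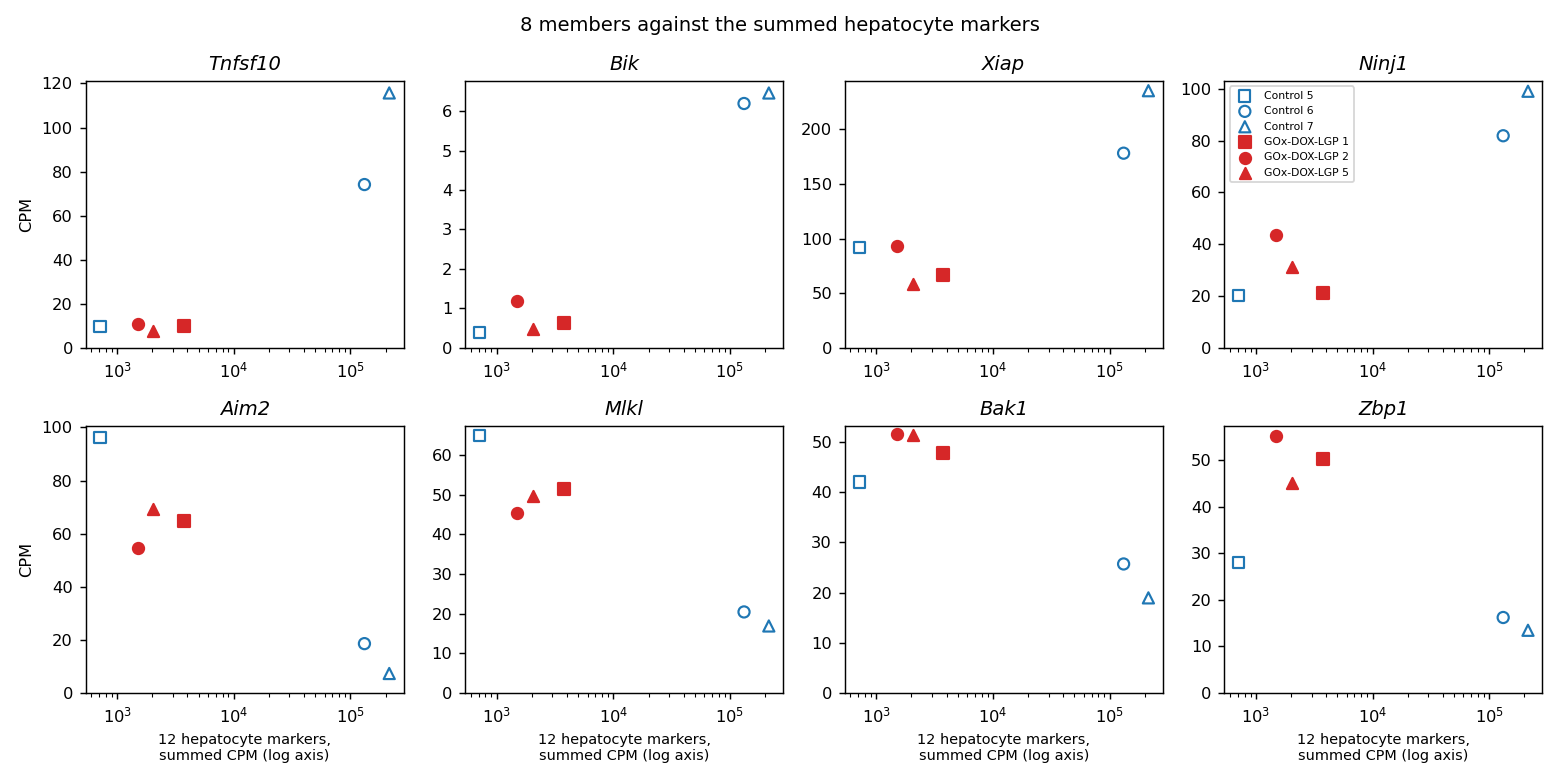
CPM of 8 members (vertical axes from 0) against the summed CPM of 12 hepatocyte markers (log axis) in each library. Tnfsf10, Bik, Xiap and Ninj1 are highest in Controls 6 and 7, the 2 libraries rich in hepatocyte markers, and Aim2 and Mlkl are highest in Control 5. Zbp1 and Bak1 are highest in the 3 treated tumors.

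Levels within the treated tumors, per kilobase of exon in GENCODE M21, were led by Mcl1 at 109.5 ± 9.45 CPM per kb (SD, n = 3). Casp1 followed at 36.02 ± 5.70, then Tnfrsf1a at 30.2 ± 5.47, Gsdmd at 25.9 ± 4.83, Bcl2l1 at 24.9 ± 3.40 and Casp8 at 24.2 ± 1.32 CPM per kb. From Casp1 down to Cflar at 13.5 ± 0.835 CPM per kb, each gene overlapped the next over the 3 tumors, so neighboring ranks are not resolved there. Ranges of neighbors were separate between Mcl1 and Casp1, Cflar and Bcl2, Ripk3 and Fadd, Gsdme and Nlrc4, and Bik and Hrk. Zbp1 ranked 12 of 36, at 14.2 ± 1.45 CPM per kb, above its partner Ripk3 at 4.76 ± 0.734. The adaptor Pycard, at 0.771 ± 0.114 CPM per kb, stood below Casp1, the caspase it recruits, and Gsdme at 1.45 ± 0.149 stood below Gsdmd. The exon length merges all annotated transcripts of a gene. It was 3800 bases for Pycard, 1497 for Casp1, 12742 for Gsdme and 2377 for Gsdmd. Without division by length, the treated means were 2.93, 53.9, 18.5 and 61.5 CPM in the same order. The size of these gaps per kb thus depends on the annotated length.

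Because several members shared the pattern of Control 5 and the treated tumors, the 250 bases before each RefSeq start were searched on both strands in 33 members. The letters of an interferon-stimulated response element (GAAANNGAAA) were in 0 of 33 members and in 3.46% of 27025 genes. Those of a gamma-activated site (TTCNNNGAA) were in 2 members, Ripk1 and Tnfrsf1a (6.06% of members, 8.13% of genes). The kappaB motif was in 3, namely Casp4, Nlrp3 and Bcl2l1 (9.09% of members, 8.23% of genes). The shares are near those of all genes, and a match is a description of letters and not a binding site. Both starts of Casp4 had a match, against 1 of 2 starts of Nlrp3 and 1 of 3 of Bcl2l1. The matching windows of these 3 are printed because the genes were low in Controls 6 and 7 and high elsewhere. Those of Aim2 and Tnfsf10, without a match, are printed because they were the members with the greatest contrast between Control 5 and the other controls in each direction, Bik aside. That of Ripk1, the 1 of its 2 starts with a match, shows a level gene. Zbp1, Gsdmd and Bik had no start among the promoter sequences used and were not searched, so the shares above do not cover them. Sequences are from RefSeq (GRCm38.p6), 5′ to 3′ on the strand of the gene, and end at the base before the start used, with matches in capitals, some of which cover overlapping matches on both strands.
Casp4 chr9:5308599-5308848 (+ strand): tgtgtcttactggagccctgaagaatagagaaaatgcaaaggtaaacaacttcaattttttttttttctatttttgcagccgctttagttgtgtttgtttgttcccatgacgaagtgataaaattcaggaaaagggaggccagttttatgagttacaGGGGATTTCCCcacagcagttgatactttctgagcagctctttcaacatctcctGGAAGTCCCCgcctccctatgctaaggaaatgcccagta
Nlrp3 chr11:59541319-59541568 (+ strand): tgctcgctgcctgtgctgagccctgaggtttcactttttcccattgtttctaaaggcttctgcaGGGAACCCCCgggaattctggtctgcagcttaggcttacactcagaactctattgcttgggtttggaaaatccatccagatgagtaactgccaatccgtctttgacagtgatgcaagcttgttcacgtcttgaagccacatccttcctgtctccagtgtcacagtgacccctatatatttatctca
Bcl2l1 chr2:152830718-152830967 (- strand): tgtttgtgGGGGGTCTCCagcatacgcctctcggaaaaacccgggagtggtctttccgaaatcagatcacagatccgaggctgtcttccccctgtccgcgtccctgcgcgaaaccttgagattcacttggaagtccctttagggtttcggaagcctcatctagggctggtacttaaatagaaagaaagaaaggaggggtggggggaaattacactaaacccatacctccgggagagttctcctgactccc
Aim2 chr1:173420354-173420603 (+ strand): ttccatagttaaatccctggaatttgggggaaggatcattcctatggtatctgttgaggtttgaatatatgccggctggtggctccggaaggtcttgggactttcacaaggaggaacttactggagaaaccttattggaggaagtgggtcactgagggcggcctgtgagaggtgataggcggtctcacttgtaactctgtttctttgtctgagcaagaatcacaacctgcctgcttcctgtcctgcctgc
Tnfsf10 chr3:27316827-27317076 (+ strand): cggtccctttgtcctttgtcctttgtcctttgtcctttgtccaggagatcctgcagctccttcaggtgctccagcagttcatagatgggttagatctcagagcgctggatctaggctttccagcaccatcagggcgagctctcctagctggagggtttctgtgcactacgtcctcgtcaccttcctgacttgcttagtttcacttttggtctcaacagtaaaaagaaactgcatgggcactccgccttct
Ripk1 chr13:34002624-34002873 (+ strand): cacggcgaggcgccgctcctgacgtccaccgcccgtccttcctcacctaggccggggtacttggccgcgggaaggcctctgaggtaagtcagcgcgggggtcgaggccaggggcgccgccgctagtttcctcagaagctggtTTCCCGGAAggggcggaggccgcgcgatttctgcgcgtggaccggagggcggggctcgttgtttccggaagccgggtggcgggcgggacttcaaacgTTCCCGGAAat

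By the coordinates of the GENCODE M21 annotation (GRCm38), Casp4 lies on chromosome 9 from 5308828 to 5336783, beside Casp1 from 5298517 to 5307265 on the same strand, and these neighbors differed in pattern. Casp1 counts were 1.12, 3.09 and 1.62 per Casp4 count in the controls and 2.03, 1.71 and 1.59 in the treated tumors. Control 5 held the fewest Casp1 counts per Casp4 count and Control 6 the most. Birc2 and Birc3 are a second neighboring pair on chromosome 9, and Casp8 and Cflar lie close together on chromosome 1. Zbp1 lies on chromosome 2 from 173206612 to 173218923 on the minus strand, with 0% of its exon bases overlapped by other genes. Tnfsf10 lies on chromosome 3 from 27317028 to 27342427 on the plus strand.

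Other genes of the same routes were taken from lists of 56 names, of which 55 were found. In edgeR with all 6 libraries, 0 genes of any of these lists had an adjusted p under 0.05. At an unadjusted p under 0.05, 2 of 10 other pyroptosis genes were higher and 1 lower, 1 of 9 necroptosis genes was lower, 2 of 11 death receptor genes were lower, and 6 of 20 mitochondrial genes were lower, with 0 higher in the last 3 lists, beside 2.87% of all genes higher and 14.6% lower. DESeq2 called 1 pyroptosis gene higher and 1 lower, and 3 mitochondrial genes lower, beside 0.93% and 8.93% of all genes. Without Control 5, the counts called higher and lower were 4 and 3 of 11, 3 and 1 of 9, 4 and 2 of 11, and 11 and 5 of 20, beside 22.2% and 25.5% of all genes.

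Of the other pyroptosis genes, the highest log2 fold changes were those of Mefv (pyrin, an inflammasome sensor), at 1.29 ± 0.41, and Il1b, the cytokine that caspase-1 matures, at 1.26 ± 0.79. The lowest were Nlrp6, a sensor known from gut and liver epithelium, at −5.53 ± 1.81, and Il18, the second cytokine of caspase-1, at −1.35 ± 0.63. Nlrp6 measured 0.790, 201 and 278 CPM in the controls and 1.81 to 6.08 CPM in the treated tumors. It was thus low in Control 5 as well.

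The necroptosis list ran from Ppm1b, a phosphatase of RIPK3, at −0.97 ± 0.38 and Ticam1, the adaptor TRIF, at −0.36 ± 0.23, to Tnfaip3, the ubiquitin editor A20, at 0.50 ± 0.85 and Traf2, a TNF receptor adaptor, at 0.59 ± 0.34. In the death receptor list, Fas, the receptor of FASL, was lowest at −1.71 ± 0.68, with 5.26, 29.3 and 28.2 CPM in the controls and 4.84 to 9.41 CPM in the treated tumors. Ltbr, the lymphotoxin beta receptor, followed at −1.11 ± 0.42. Tnfrsf12a, the receptor of TWEAK, was highest at 1.26 ± 0.97, before Tnfrsf1b, the second TNF receptor, at 0.74 ± 0.33. For both, Control 5 lay within the treated range. It held 110 CPM of Tnfrsf12a, against 65.3 to 145 CPM in the treated tumors, and 65.9 CPM of Tnfrsf1b, against 63.2 to 116 CPM. The ligand Fasl was thus higher and its receptor Fas lower in estimate. Control 5 lay below each treated tumor for Fasl, though close to treated tumor 1, and within the treated range for Fas. Tnfrsf10b, the TRAIL receptor DR5, measured 47.7, 6.95 and 1.72 CPM in the controls and 22.6 to 29.9 CPM in the treated tumors. Its log2 fold change was 0.41 ± 1.05, with Control 5 above all treated tumors and Controls 6 and 7 below them.

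In the mitochondrial list, the anti-apoptotic Bcl2a1d and Bcl2a1b had the highest log2 fold changes, at 1.33 ± 0.74 and 1.28 ± 0.63. They are near-identical copies, so the split of reads between them is uncertain. Endog, a mitochondrial nuclease, and Aifm1, the apoptosis-inducing factor, had the lowest, at −2.43 ± 0.65 and −2.25 ± 0.79. Aifm1 measured 18.1, 125 and 190 CPM in the controls and 19.7 to 29.6 CPM in the treated tumors, with Control 5 below all treated tumors. Endog measured 1.23, 2.88 and 5.81 CPM in the controls and 0.791, 0.539 and 0.468 CPM in the treated tumors, without overlap. Its adjusted p was 0.247 in edgeR and 0.00968 in DESeq2. Of this list, 3 of 20 genes lay lower without overlap and 1 higher, beside 8.31% and 8.87% of all genes.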

How the data were processed

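Tumor RNA was sequenced from 3 control and 3 GOx-DOX-LGP mice, grouped by their labels. Raw counts for each gene were deposited by the authors without normalization. The submitters' processing notes name Trimmomatic 0.38, HISAT2 2.1.0 and featureCounts 2.0.0, whereas the methods name TopHat and HTSeq, and the genome build and annotation are not given in the sources used here. The deposited signal values equal the counts over 1 constant per library, and served only to pair gene IDs with symbols and to check the counts. The members, gene lists and tests were chosen with earlier results of these data known.

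The software was edgeR 4.0.16, DESeq2 1.42.0 and limma 3.58.1 under R 4.3.3, with matplotlib 3.10.9 under Python 3.11.15 for plots. Low counts were removed by filterByExpr (defaults, minimum count of 10), TMM factors were applied, and the quasi-likelihood test of edgeR was fitted to all 6 libraries with the group as the only term. P-values were adjusted by the Benjamini-Hochberg method over all genes kept, at a threshold of 0.05. The steps were tested on simulated data. Alternatives were DESeq2, limma voom with sample quality weights, scaling by DESeq2 size factors, library totals, upper quartile or 12 housekeeping genes, other filters, a covariate of 12 hepatocyte markers, and leaving out each library. Route medians under alternatives other than the scalings were added after seeing the data.

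Values per library were set for members without overlap, members with an absolute log2 fold change of at least 1, and Bcl2l11, Tnfsf10, Casp8, Mcl1 and Ripk1. Of other pathway genes, the 2 highest and 2 lowest of each list were named, and Tnfrsf10b was added after its values had been seen. Other members given per library, such as Aim2, Mlkl and Bcl2, and the ratios within libraries were chosen after their values had been seen. Of 55536 gene IDs, 55450 matched GENCODE M21 (GRCm38), which gave positions, exon lengths and overlaps.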

Additional observations from a re-analysis of the deposited data

How the results depend on the processing

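With all 6 libraries, 0 members were called at an adjusted p under 0.05 and 6 at an unadjusted p under 0.05. At the adjusted threshold, DESeq2 called 2 (1 higher, 1 lower), beside 0.93% of all genes higher and 8.93% lower. With limma voom and sample quality weights, 13 members were higher (37.1% of members, 29.2% of all genes). Another 10 were lower (28.6% of members, 30.9% of all genes), 23 in total. Without 1 library, edgeR called 0 to 20 (0 to 13 higher, 0 to 7 lower). The upper values were all without Control 5, beside 22.2% of all genes higher and 25.5% lower, and 0 were called without any other library. At the unadjusted threshold, the count was 26 under voom, 3 under library totals, 2 with the hepatocyte covariate and 1 to 21 without 1 library. Under voom 31.8% of all genes were then higher and 33.1% lower, and without Control 5 the shares were 27.2% and 28.3%. The members without overlap numbered 8, and 8 to 26 without 1 library. The upper value was without Control 5. There 16 members lay higher (45.7% of members, 36.8% of all genes). Another 10 lay lower (28.6% of members, 35.3% of all genes). Why voom called more was not tested.

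The median log2 fold change of the members was 0.53 under library totals and −0.032 under housekeeping scaling. The death receptor median changed sign under library totals (0.46), upper quartile scaling (0.074) and voom (0.18). The mitochondrial median did so under library totals (0.36), no filter (0.010, over 16 genes with Hrk included) and the hepatocyte covariate (0.0042). The covariate gave 0.21 for pyroptosis and 0.25 for necroptosis, and voom 1.25 for necroptosis. Without 1 library, the medians were −0.028 to 0.18 for the members, 0.13 to 1.05 for pyroptosis, 0.39 to 1.56 for necroptosis, −0.12 to 0.078 for death receptors and −0.21 to −0.047 for mitochondria. The medians of all genes were 0.51, 0.19 and −0.10 under library totals, upper quartile and housekeeping scaling.

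Of the 35 members, 16 changed sign under at least 1 of 15 alternatives and 19 under none. Under library totals, the log2 fold changes became 0.50 for Nlrc4, 0.45 for Ripk1, 0.46 for Tnfrsf1a, 0.46 for Casp8, 0.41 for Fadd, 0.38 for Cflar, 0.31 for Casp9, 0.10 for Casp6, 0.32 for Birc2, 0.36 for Birc3 and 0.23 for Diablo. Upper quartile scaling gave 0.14 for Nlrc4, 0.10 for Ripk1, 0.063 for Tnfrsf1a, 0.15 for Casp8, 0.046 for Fadd and 0.074 for Cflar. Housekeeping scaling gave −0.032 for Bad. Voom gave −0.20 for Gsdmd, 0.032 for Ripk1, 0.18 for Casp8, 0.18 for Cflar and −0.19 for Bad. The hepatocyte covariate gave 0.16 for Ninj1, 0.0082 for Nlrc4, 0.071 for Tnfrsf1a, −0.20 for Bcl2l11, 0.0055 for Bik and 0.0042 for Diablo. Without a filter on low counts, Nlrc4 was at 0.037 and Casp8 at 0.042. Leaving out 1 library gave −0.0052 to 0.21 for Bad, −0.092 to 0.72 for Bcl2l11, −0.12 to 0.11 for Casp8, −0.21 to 0.078 for Cflar, −0.15 to 0.12 for Nlrc4, −0.16 to 0.091 for Ripk1 and −0.27 to 0.0057 for Tnfrsf1a. The cause of these changes was not tested.

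No paired analysis was possible because the groups share only the number 5. Depth limits Hrk, Bik, Pycard and Tnf, which had at most 10 counts in some library.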
